A study of Mus musculus with 6 samples.

Results

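Followed here were 9 solute carrier genes of amino acid transport in the endothelium of brain and spinal cord: Slc7a5, Slc3a2, Slc7a1, Slc38a2, Slc38a3, Slc38a5, Slc1a4, Slc1a5 and Slc6a6. They were chosen by name, as 9 of the 56748 genes in the count table, with earlier results of these data known. Expression was measured by bulk RNA sequencing in endothelial cells sorted by flow cytometry from the spinal cord of mice at postnatal day 16 (the reagents listed include antibodies to CD31, CD45 and TER-119), with 1 library per mouse, 3 control mice and 3 TDP-43iΔEC mice. Control mice carried the floxed Tardbp allele (Tardbpflox) without Cre. TDP-43iΔEC mice carried the same allele together with Cdh5(PAC)-CreERT2, a tamoxifen-inducible Cre driven by the endothelial Cdh5 promoter, so that Tardbp, which encodes the RNA-binding protein TDP-43, was deleted in endothelial cells. All 6 mice received tamoxifen at 1 mg/mL on postnatal days 5 to 7. Because only TDP-43iΔEC mice carried Cre, the presence of Cre and the loss of Tardbp cannot be told apart. Both sexes were used in the study, and the sex of each library was not given in the labels.

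Endothelial cells of the central nervous system are sealed by tight junctions, so amino acids cross them through carriers rather than between the cells. Exchangers of large neutral amino acids work in both membranes and equalise pools, carriers of cationic amino acids supply arginine and lysine, and sodium-coupled carriers on the tissue-facing side move glutamine and small neutral amino acids out of the neural tissue. When amino acids are scarce, the kinase GCN2 and the transcription factor ATF4 raise a set of genes that includes amino acid carriers and biosynthetic enzymes, a programme known as the amino acid response.

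The libraries held between 25704871 and 47270654 estimated counts, and 3 counts corresponded to 0.0635 to 0.117 CPM, counts scaled to a common library total. Tardbp was at 1972, 2279 and 2069.9 normalized counts in control and 980.2, 599.6 and 433 in TDP-43iΔEC mice, with no overlap (log2 fold change -1.62, limma adjusted p = 0.287). Normalized counts are estimated counts divided by a size factor per library, and cover the whole gene, of which the loxP sites flank exon 3. Summed over 10 markers, led by Cldn5, endothelial transcripts lay at 13072 to 19583 CPM in control and 13503 to 17547 CPM in TDP-43iΔEC mice. Their log2 fold changes ran mostly the same way as those of the carriers, with 9 of 10 negative, a median of -0.24, 3 lower at an unadjusted p under 0.05 and none past the adjusted threshold. Summed mural cell markers (8 genes, led by Rgs5) lay at 652 to 1233 CPM in control and 568 to 1458 CPM in TDP-43iΔEC mice. Neuron markers (6 genes, Tubb3 at 0), microglia and macrophage markers (8 genes, Adgre1 at 0) and fibroblast markers (5 genes) summed to at most 43.9 CPM in any library. Erythroid markers (5 genes, led by Hbb-bs) lay at 6336 to 9759 CPM in control and 2197 to 2909 CPM in TDP-43iΔEC mice. Control 2 and TDP-43iΔEC 1 stood apart from the other libraries in multidimensional scaling, and values without them are given beside some of the results.

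In all, 7 of the 9 carriers were among the more abundant transcripts of these cells. All 9 passed the filter on low counts, and for 7 of them the mean level lay between the 97.7 and 99.7 percentiles of the 13107 genes tested, against 86.3 for Slc1a4 and 43.9 for Slc1a5. Divided by the length of the canonical transcript, to allow comparison between genes, the control level was highest for Slc3a2 at 28792 ± 5055 normalized counts per kb (SD, n = 3). Slc38a5 followed at 17516 ± 4076 and Slc38a3 at 11735 ± 1045 per kb. Slc6a6 at 6796 ± 1612 and Slc7a5 at 5882 ± 546 per kb came next, and their control ranges overlapped, so these neighbours were not ordered beyond the spread between mice. The same held for Slc7a1 at 3435 ± 851 and Slc38a2 at 3409 ± 966 per kb. Slc1a4 at 895 ± 505 and Slc1a5 at 163 ± 53.5 per kb were lowest, and neither range overlapped its neighbour. With the length of all annotated exons in place of the canonical transcript, Slc7a5 moved from rank 5 to rank 3.

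**Figure D1:**
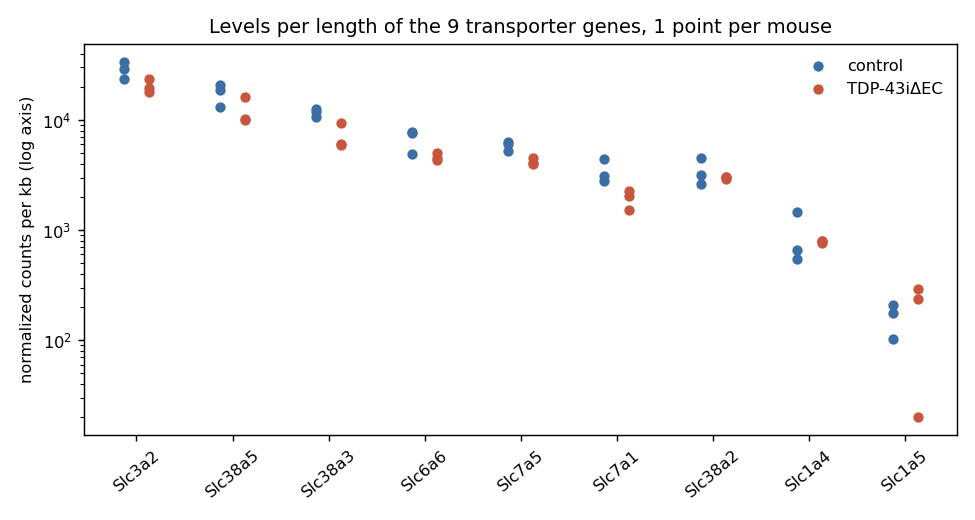
Level of each carrier in normalized counts per kb of canonical transcript, on a log axis, with 1 point per mouse. Slc3a2 was highest and Slc1a5 lowest in control mice, and the points of Slc1a5 spread widest within the TDP-43iΔEC group.

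Expression of the carriers was lower on average in TDP-43iΔEC mice, but no single gene passed the test. All 9 log2 fold changes were negative, compared with 50.7% of all genes tested, although those of Slc38a2, Slc1a4 and Slc1a5 turned positive when libraries were scaled to the endothelial markers, and those of Slc1a4 and Slc1a5 also with library size alone. Their median was -0.54 against -0.02 over all genes. None of the 9 passed an adjusted p of 0.05 in limma, at which 0.137% of all genes were called (4 higher and 14 lower). In 6 of 9 the unadjusted p was under 0.05, all lower, compared with 5% of all genes. In 3 of 9 (Slc7a5, Slc7a1 and Slc38a3) the groups did not overlap in normalized counts and TDP-43iΔEC mice were lower, as in 7.11% of all genes. None of the 9 was higher without overlap, as in 7.92% of all genes. Of the 10 endothelial markers, 4 were lower and 0 higher without overlap, so this separation was not particular to the carriers. As a share of the library total, the groups of Slc38a3 overlapped. DESeq2, which called 1.1% of genes lower, placed 2 of the 9 past its threshold, Slc7a1 (log2 fold change -0.82, adjusted p = 0.0426) and Slc38a3 (-0.72, adjusted p = 0.0489), while edgeR placed none. Over the 18 settings the adjusted p ranged from 0.0426 to 0.589 for Slc7a1 and from 0.0489 to 0.651 for Slc38a3. With either of those scalings, which moved the median of all genes to 0.23 and 0.18, 2 of the 9 had an unadjusted p under 0.05. Without control 2 and TDP-43iΔEC 1, 4 of the 9 were under that unadjusted threshold, Slc3a2 and Slc6a6 no longer among them, and the log2 fold change of Slc1a5 was -0.69. Without TDP-43iΔEC 1 alone the number was also 4. Erythroid markers moved with the groups, and with rRNA, hemoglobin and mitochondrially encoded genes left out the median of the 9 was -0.50. In bulk RNA, fewer cells of a type and less RNA per cell cannot be told apart.

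**Figure D2:**
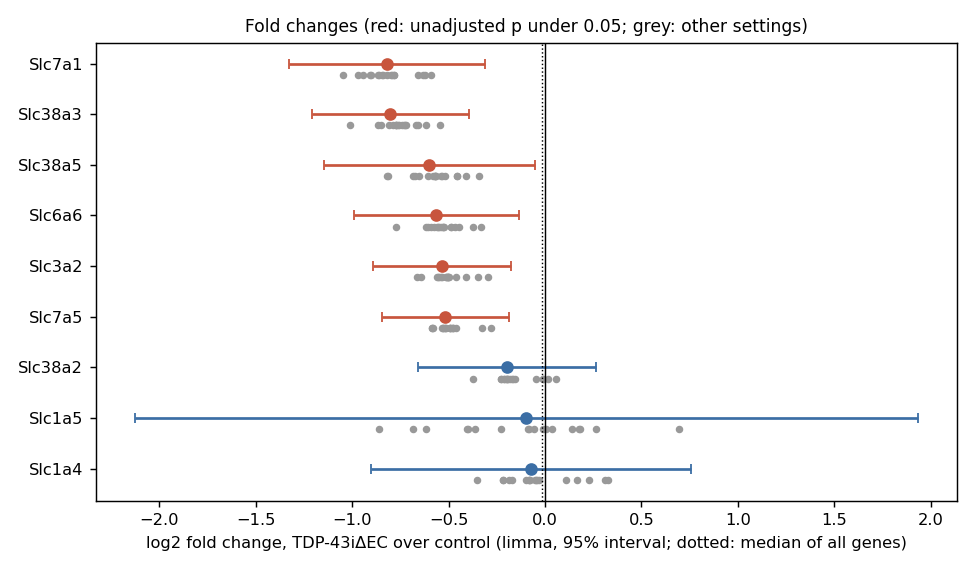
Log2 fold change of each carrier (TDP-43iΔEC over control, limma) with its 95% interval, and grey dots for the 18 other settings. All 9 estimates lay below 0, and the intervals of Slc38a2, Slc1a4 and Slc1a5 crossed it.

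Slc7a5 and Slc3a2 encode LAT1 and 4F2hc, the light and heavy chains of the exchanger that carries leucine, phenylalanine, tryptophan, L-DOPA and thyroid hormone across the barrier. In normalized counts, as for the other carriers, Slc7a5 (ENSMUSG00000040010.11, chr8:122607884-122634433 on the minus strand, GRCm39, 10 exons) was at 22206, 21323 and 18530.3 in controls 1 to 3 and 15808, 14233 and 14042 in TDP-43iΔEC mice 1 to 3. Every TDP-43iΔEC mouse lay below every control mouse. The means were 20686 ± 1919 (SD, n = 3) in control and 14694 ± 969 (SD, n = 3) in TDP-43iΔEC mice, a log2 fold change of -0.52 (SE 0.15, 95% interval -0.85 to -0.19, limma unadjusted p = 0.00633, Benjamini-Hochberg adjusted p = 0.353). Slc3a2 (ENSMUSG00000010095.14, chr19:8684245-8701108 on the minus strand, 9 exons), whose product brings LAT1 and several related light chains to the cell surface, was at 86342, 73833 and 60517 in controls 1 to 3 and 49347, 60761 and 45529.9 in TDP-43iΔEC mice 1 to 3. TDP-43iΔEC 2 reached the level of control 3, so the groups overlapped. Its means were 73564 ± 12914 (SD, n = 3) in control and 51879 ± 7925 (SD, n = 3) in TDP-43iΔEC mice, a log2 fold change of -0.54 (SE 0.16, 95% interval -0.89 to -0.18, limma unadjusted p = 0.00814, Benjamini-Hochberg adjusted p = 0.360). Of its annotated exon length, 15.9% lies opposite the noncoding gene Snhg1, and counting without strand could not separate the 2 genes there, although the counts of Snhg1 came to 1.25% of those of Slc3a2. Stretches of up to 174 bp of its transcript also match transcripts of 83 genes other than Snhg1, and reads from there could be divided between them.

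Because the chains form a single exchanger, their ratio within a library needs no scaling between libraries. Slc7a5 per kb over Slc3a2 per kb was 0.187, 0.210 and 0.222 in control and 0.233, 0.170 and 0.224 in TDP-43iΔEC mice. The lowest and the highest ratio both belonged to TDP-43iΔEC mice. The mean ratio was 0.206 ± 0.0181 (SD, n = 3) in control and 0.209 ± 0.0339 (SD, n = 3) in TDP-43iΔEC mice, a difference smaller than the SD of either group. The mean log2 ratio differed by 0.0084, TDP-43iΔEC over control (two-sided exact permutation test of the log2 ratios, p = 0.9, smallest possible 0.1).

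Slc7a1 encodes CAT1, the carrier of arginine, lysine and ornithine, and had a log2 fold change close to that of Slc38a3. Slc7a1 (ENSMUSG00000041313.15, chr5:148264220-148336848 on the minus strand, 13 exons) was at 32179.9, 22774 and 20412 in controls 1 to 3 and 16651, 14955 and 11051 in TDP-43iΔEC mice 1 to 3. All TDP-43iΔEC mice lay below all controls, and control 1 stood highest. The means were 25122 ± 6226 (SD, n = 3) in control and 14219 ± 2872 (SD, n = 3) in TDP-43iΔEC mice, a log2 fold change of -0.82 (SE 0.23, 95% interval -1.33 to -0.31, limma unadjusted p = 0.00555, Benjamini-Hochberg adjusted p = 0.334). Without control 2 and TDP-43iΔEC 1 the log2 fold change was -1.05. The RefSeq promoter table (GRCm38.p6) has 2 start sites for this gene. The 210 bases around the second (chr5:148392806-148393015, minus strand, 200 bases before to 10 after the start) held the TCF/LEF motif CTTTGATC. These letters are a form of the binding sequence of the transcription factors that act with β-catenin. The motif lies on the opposite strand, 49 to 42 bases before the start. It is shown because Wnt/β-catenin signalling sustains the barrier, and capitals mark the motif as it reads on the gene's strand.
Slc7a1 second start: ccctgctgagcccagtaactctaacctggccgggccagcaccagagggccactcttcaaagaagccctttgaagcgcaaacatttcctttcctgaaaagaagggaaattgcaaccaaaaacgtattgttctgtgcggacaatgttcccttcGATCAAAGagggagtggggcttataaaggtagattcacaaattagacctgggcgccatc
This motif, searched on both strands, was present in 0.624% of the 32851 windows of the table. Only exact matches to its letters were searched, and shorter or variant forms were not counted. The window of the first start held neither this motif nor the amino acid response motif TGATGCAA, and a match describes the letters and not a site of binding.

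**Figure D3:**
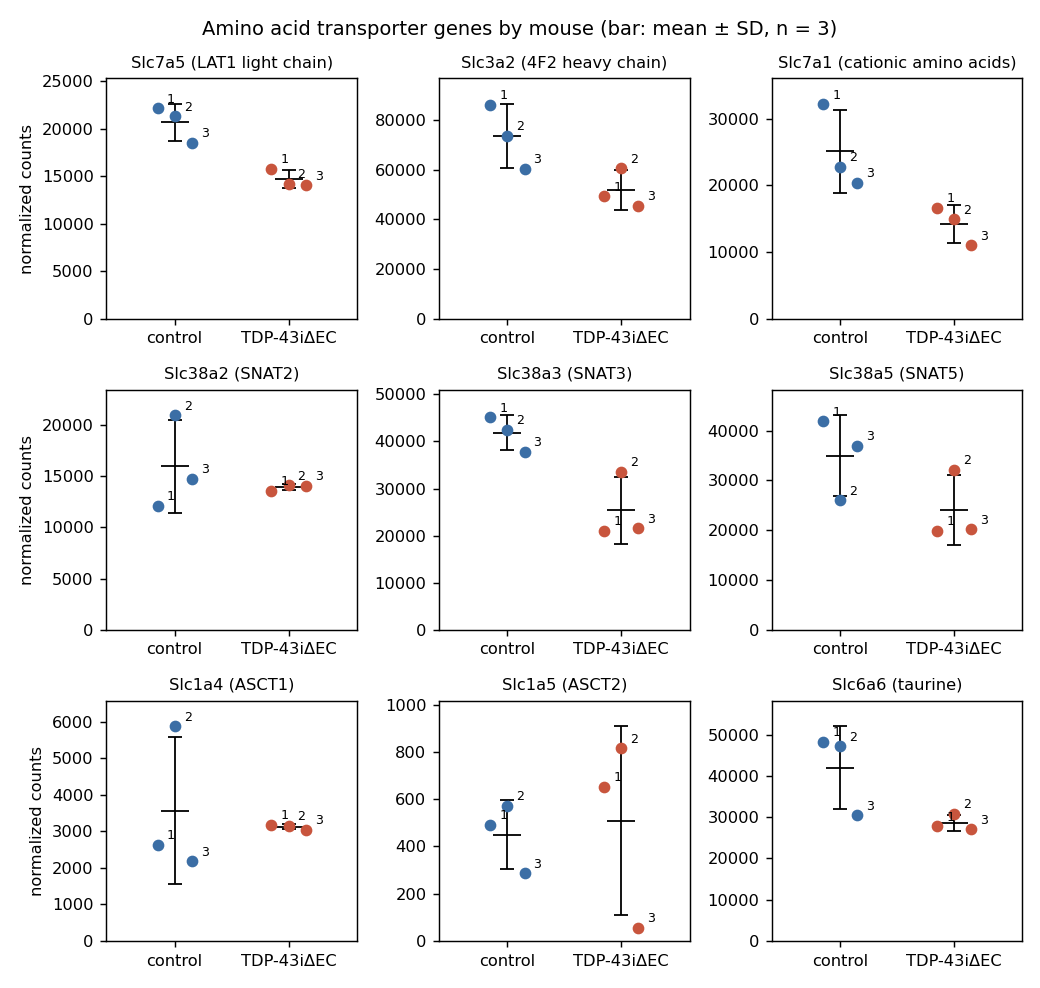
Normalized counts of each carrier by mouse, 1 panel per gene, with control and TDP-43iΔEC mice side by side. A line marks the group mean and bars mark the SD. Slc7a5, Slc7a1 and Slc38a3 show no overlap between groups, and control 2 stood highest for Slc38a2 and Slc1a4.

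The 3 carriers of the Slc38 family differed in how far their groups separated. Slc38a3 encodes SNAT3, a sodium- and proton-coupled carrier of glutamine, histidine and asparagine. Slc38a3 (ENSMUSG00000010064.16, chr9:107527815-107547018 on the minus strand, 16 exons) was at 45184, 42469 and 37821 in controls 1 to 3 and 21028, 33609 and 21572 in TDP-43iΔEC mice 1 to 3. In normalized counts no TDP-43iΔEC mouse reached a control, although TDP-43iΔEC 2 lay well above the other TDP-43iΔEC mice. As a share of the library total, TDP-43iΔEC 2 (28192 of 28228980 estimated counts) lay above control 3 (46593 of 47270654), so there the groups overlapped. The means were 41825 ± 3723 (SD, n = 3) in control and 25403 ± 7112 (SD, n = 3) in TDP-43iΔEC mice, a log2 fold change of -0.80 (SE 0.18, 95% interval -1.21 to -0.40, limma unadjusted p = 0.00160, Benjamini-Hochberg adjusted p = 0.233), and the gene ranked 90 by p among all genes tested. Astrocytes also express Slc38a3, and summed astrocyte markers (7 genes, led by Gja1, with Gjb6 at 0) lay at 211 to 249 CPM in control and 149 to 197 CPM in TDP-43iΔEC mice. Gja1 alone made up most of this sum in every library. Of the 3 astrocyte markers tested, 2 had a negative and 1 a positive log2 fold change. The sort was made for endothelial cells, and the part of astrocyte RNA in the result was not tested.

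Slc38a5 encodes SNAT5, a related carrier of glutamine, serine and glycine. Slc38a5 (ENSMUSG00000031170.15, chrX:8123870-8146425 on the plus strand, 15 exons) was at 41846, 25979 and 37007 in controls 1 to 3 and 19922, 32146 and 20222 in TDP-43iΔEC mice 1 to 3. Control 2 lay below TDP-43iΔEC 2, so the groups overlapped. The means were 34944 ± 8132 (SD, n = 3) in control and 24097 ± 6973 (SD, n = 3) in TDP-43iΔEC mice, a log2 fold change of -0.60 (SE 0.24, 95% interval -1.15 to -0.05, limma unadjusted p = 0.0349, Benjamini-Hochberg adjusted p = 0.511). The unadjusted p was 0.0626 in edgeR. In limma it was 0.0996 without control 1, 0.0756 without control 3, 0.150 without TDP-43iΔEC 1 and 0.103 without TDP-43iΔEC 3. It was 0.00414 without control 2 and 0.0113 without TDP-43iΔEC 2 in limma. Slc38a2 encodes SNAT2, a sodium-coupled carrier of alanine, proline and other small neutral amino acids that is raised when amino acids are scarce. Slc38a2 (ENSMUSG00000022462.8, chr15:96585266-96597894 on the minus strand, 16 exons) was at 12146, 20962 and 14778 in controls 1 to 3 and 13579, 14144 and 14082 in TDP-43iΔEC mice 1 to 3. The TDP-43iΔEC values lay inside the control range and close to each other. The means were 15962 ± 4526 (SD, n = 3) in control and 13935 ± 309.6 (SD, n = 3) in TDP-43iΔEC mice, a log2 fold change of -0.20 (SE 0.20, 95% interval -0.66 to 0.27, limma unadjusted p = 0.360, Benjamini-Hochberg adjusted p = 0.771). Without control 2 and TDP-43iΔEC 1 the log2 fold change was 0.014.

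Slc1a4 and Slc1a5 encode ASCT1 and ASCT2, sodium-dependent exchangers of alanine, serine and cysteine, the second of which also takes glutamine. Slc1a4 (ENSMUSG00000020142.13, chr11:20252180-20282774 on the minus strand, 8 exons) was at 2639, 5877 and 2187 in controls 1 to 3 and 3185, 3153 and 3048 in TDP-43iΔEC mice 1 to 3. Control 2 alone lay above the TDP-43iΔEC range, and the other controls lay below it. The means were 3568 ± 2013 (SD, n = 3) in control and 3129 ± 72.0 (SD, n = 3) in TDP-43iΔEC mice, a log2 fold change of -0.07 (SE 0.37, 95% interval -0.90 to 0.76, limma unadjusted p = 0.846, Benjamini-Hochberg adjusted p = 0.965). Without control 2 the log2 fold change was 0.32. Annotated exons on the opposite strand cover 7.37% of its exon length. The 210 bases around its RefSeq start (GRCm38.p6, chr11:20332704-20332913, minus strand) held the amino acid response motif TGATGCAA, through which ATF4 and its partners act, on the opposite strand, beginning 4 bases before the start and running across it. Capitals mark it as it reads on the gene's strand.
Slc1a4: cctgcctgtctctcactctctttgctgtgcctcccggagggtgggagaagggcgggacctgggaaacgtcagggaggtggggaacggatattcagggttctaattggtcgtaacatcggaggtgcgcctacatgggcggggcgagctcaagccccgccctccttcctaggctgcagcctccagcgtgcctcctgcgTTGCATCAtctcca
This motif was in 0.676% of the 32851 windows. The windows of Slc38a2, Slc3a2 and Slc38a5 held no exact match to either motif, and variant forms were not searched.

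Slc1a5 had the lowest level of the 9 and the widest spread within TDP-43iΔEC mice. Slc1a5 (ENSMUSG00000001918.18, chr7:16515265-16532731 on the plus strand, 9 exons) was at 492, 572 and 286 in controls 1 to 3 and 653, 814 and 55.3 in TDP-43iΔEC mice 1 to 3. TDP-43iΔEC 3, with 39 estimated counts, lay far below all other mice, while the other TDP-43iΔEC mice lay above all controls. The means were 450.2 ± 148 (SD, n = 3) in control and 508 ± 399.9 (SD, n = 3) in TDP-43iΔEC mice, a log2 fold change of -0.10 (SE 0.90, 95% interval -2.13 to 1.94, limma unadjusted p = 0.917, Benjamini-Hochberg adjusted p = 0.983). The mean of normalized counts was higher and the log2 fold change lower in TDP-43iΔEC mice, and without TDP-43iΔEC 3 the log2 fold change was 0.70.

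Slc6a6 encodes TauT, the sodium- and chloride-coupled carrier of taurine. Slc6a6 (ENSMUSG00000030096.9, chr6:91660573-91736047 on the plus strand, 15 exons) was at 48324, 47257 and 30542 in controls 1 to 3 and 27874, 30813 and 27053 in TDP-43iΔEC mice 1 to 3. Control 3 lay just below TDP-43iΔEC 2, so the groups overlapped, and controls 1 and 2 lay above all TDP-43iΔEC mice. The means were 42041 ± 9973 (SD, n = 3) in control and 28580.3 ± 1977 (SD, n = 3) in TDP-43iΔEC mice, a log2 fold change of -0.56 (SE 0.19, 95% interval -0.99 to -0.14, limma unadjusted p = 0.0155, Benjamini-Hochberg adjusted p = 0.435). The gene Gm44981, with 2 counts over all libraries, lies opposite 2.31% of its exon length, and stretches of up to 113 bp of its transcript match transcripts of 11 genes other than Gm44981.

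Summed over the 9 carriers, normalized counts were 291359, 261046 and 222081 in control and 168047, 204628 and 156656 in TDP-43iΔEC mice. The sum was lower in every TDP-43iΔEC mouse than in every control, with means of 258162 ± 34729 and 176444 ± 25064 (SD, n = 3 each). In CPM, without scaling between libraries, the sums were 7956, 6478 and 5788 in control and 4933, 6081 and 4298 in TDP-43iΔEC mice, where TDP-43iΔEC 2 lay above control 3 and the groups overlapped. Shares of this sum were compared for the 5 largest contributors. Slc3a2 made up 28.4 ± 1.20% in control and 29.4 ± 0.315% in TDP-43iΔEC mice, and Slc6a6 16.1 ± 2.21% and 16.3 ± 1.13%. Slc38a3 made up 16.3 ± 0.761% and 14.2 ± 2.00%, Slc38a5 13.7 ± 3.41% and 13.5 ± 1.99%, and Slc7a1 9.65 ± 1.23% and 8.09 ± 1.58% (SD, n = 3 each).

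Correlations of log2 CPM over the 6 libraries, 3 of each genotype, are given as a description, because the group difference enters every pair. Among the 6 carriers with an unadjusted p under 0.05, the 15 pairwise correlations lay between r = 0.56 and r = 0.94. These 6 were all lower in the same mice, so positive values follow from the choice. With the group means removed they lay between r = -0.15 and r = 0.83, and 13 of 15 were positive. Pairs of other genes were not compared. Pairs with the remaining carriers ran both ways there, with r = -0.67 for Slc38a2 and Slc38a5, -0.65 for Slc38a5 and Slc1a4 and 0.83 for Slc38a2 and Slc1a4. Of the 4333 genes with a mean log2 CPM of at least 5, those most like Slc7a5 were Epas1 (r = 0.99), Mfsd2a (r = 0.99) and Slc52a2 (r = 0.99). The genes named for each carrier are the highest of this many correlations over only 6 libraries, and no likeness was tested. Of the other carriers the nearest to Slc7a5 was Slc7a1 at rank 35, and its partner chain Slc3a2 was at rank 142. Mfsd2a, a lipid carrier of barrier endothelium, was also among the 3 most like Slc7a1, which were Cldnd1 (r = 0.995), Psmd4 (r = 0.98) and Mfsd2a (r = 0.98). For Slc38a3 they were St3gal6 (r = 0.99), Serinc5 (r = 0.99) and Slc16a1 (r = 0.98), the last of which carries lactate and other monocarboxylates. The genes most like Slc3a2 were Bap1 (r = 0.99), Adamtsl2 (r = 0.99) and Nde1 (r = 0.98), and those most like Slc6a6 were Sox17 (r = 0.99), Sorbs3 (r = 0.99) and Jcad (r = 0.98). For Slc38a5 they were Papola (r = 0.99), Nop53 (r = 0.99) and Hadh (r = 0.98), for Slc38a2 Cdk17 (r = 0.98), Anks1 (r = 0.98) and Tm4sf1 (r = 0.98), for Slc1a4 Pak2 (r = 0.99), Sgsm3 (r = 0.99) and Nxf1 (r = 0.98) and for Slc1a5 Actg1 (r = 0.99), Rapgef1 (r = 0.98) and Grina (r = 0.98).

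Other amino acid carriers had log2 fold changes in both directions, 10 negative and 11 positive. Of 30 such genes, 21 passed the filter, none passed the adjusted threshold, 5 were lower and 1 higher at an unadjusted p under 0.05 (5% and 4.26% of all genes), and their median log2 fold change was 0.14. Without control 2, 3 were lower and 0 higher at that unadjusted p, and with TDP-43iΔEC 1 also left out these were 0 and 1. Control 2 was at 0 for 5 of the 21, and without control 2 the median was -0.62, with 16 of 21 negative. Those with the lowest p were the glutamate carrier Slc1a2 (160.5, 249.8 and 391 in control and 0, 71.5 and 18.4 in TDP-43iΔEC mice, log2 fold change -5.16, SE 2.01, limma adjusted p = 0.495), the exchanger Slc7a8 (4583, 5336 and 4288 in control and 3165, 3985 and 2031 in TDP-43iΔEC mice, log2 fold change -0.68, SE 0.27, limma adjusted p = 0.4996) and Slc43a2 (1365, 1402 and 1154 in control and 515, 1097 and 458 in TDP-43iΔEC mice, log2 fold change -1.09, SE 0.44, limma adjusted p = 0.504). Slc1a2 is abundant in astrocytes, whose summed markers, mostly Gja1, had the ranges given above. By mean level per kb over all 6 mice the highest were Slc1a1 at 1602, Slc7a8 at 939 and Slc38a10 at 408 normalized counts per kb.

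Genes of the amino acid response lay mostly higher in TDP-43iΔEC mice, again with none past the adjusted threshold. All 20 were tested, 8 had an unadjusted p under 0.05 and were higher (4.26% of all genes), none was lower, and the median log2 fold change was 1.29. Control 2 was at 0 for 6 of the 20, Trib3 and Mthfd2 among them, and without control 2 the median was 0.70, with 8 again higher at an unadjusted p under 0.05. Eif4ebp1, a repressor of translation, was at 871, 441 and 925 in control and 2509, 2186 and 2833 in TDP-43iΔEC mice (log2 fold change 1.76, SE 0.39, limma adjusted p = 0.223). Atf4 was at 5629, 6428 and 6341 in control and 10572, 9530.0 and 10277 in TDP-43iΔEC mice (log2 fold change 0.69, SE 0.17, limma adjusted p = 0.271). Phgdh, the first enzyme of serine synthesis, was at 266, 238 and 178 in control and 1004, 1481 and 1468 in TDP-43iΔEC mice (log2 fold change 2.44, SE 0.65, limma adjusted p = 0.311). In each of these 3 genes all TDP-43iΔEC mice lay above all controls. Ddit3, Atf3, Asns, Trib3 and Mthfd2 were the others under an unadjusted p of 0.05. The name of the list does not give the cause of these values. Amino acid supply was not measured, and the cause was not tested.

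**Figure D4:**
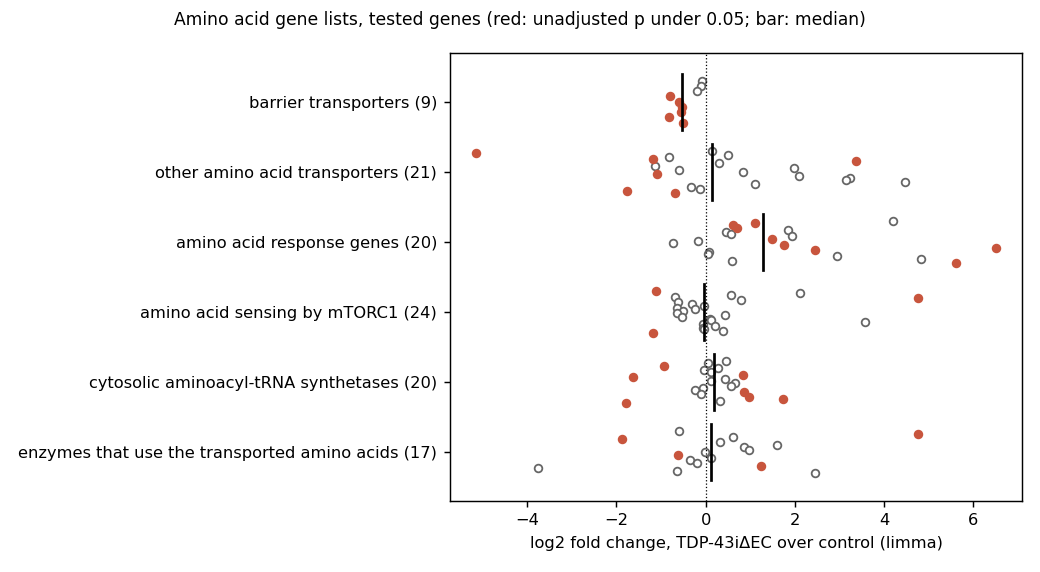
Log2 fold change (limma) of the tested genes of each amino acid list, with red points for an unadjusted p under 0.05 and a bar at the median. The barrier carriers lay below 0 with a median of -0.54, and the amino acid response genes had a median of 1.29.

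The remaining lists held no gene past the adjusted threshold in limma, and their counts at an unadjusted p under 0.05 are set against 4.26% of all genes higher and 5% lower. Of 27 genes of amino acid sensing by mTORC1, 24 were tested. Of these, 1 was higher (4.17%) and 2 lower (8.33%), against 0 and 1 without control 2, and the median was -0.05. Those with the lowest p were Tsc2 (log2 fold change -1.18, SE 0.29, limma adjusted p = 0.271), Castor1 (log2 fold change -1.11, SE 0.40, limma adjusted p = 0.471) and Fnip1 (206, 0 and 54.4 in control and 625, 321 and 449.5 in TDP-43iΔEC mice, log2 fold change 4.76, SE 1.97, limma adjusted p = 0.516). Of 20 cytosolic aminoacyl-tRNA synthetases, all tested, 4 were higher (20%) and 3 lower (15%) with a median of 0.20, and without control 2 these were 1 and 2. Among them Gars (log2 fold change 0.84, SE 0.27, limma adjusted p = 0.411), Tars (log2 fold change 0.96, SE 0.34, limma adjusted p = 0.464) and Rars (log2 fold change 0.85, SE 0.32, limma adjusted p = 0.483) had the lowest p. Of 24 enzymes that use the transported amino acids, 17 were tested, with 2 higher and 2 lower (11.8% each) and a median of 0.12, which was -0.35 without control 2. Odc1, which makes putrescine from ornithine, was at 1485, 2642 and 3454 in control and 5861, 6483 and 4869.8 in TDP-43iΔEC mice (log2 fold change 1.23, SE 0.31, limma adjusted p = 0.291). Glul, glutamine synthetase, was at 32914, 31603 and 27903 in control and 22219.8, 16474 and 23304 in TDP-43iΔEC mice (log2 fold change -0.62, SE 0.16, limma adjusted p = 0.296). Neither pair of groups overlapped. Ass1, which acts in arginine synthesis, had the third lowest p (394, 0 and 166 in control and 849, 751 and 1054 in TDP-43iΔEC mice, log2 fold change 4.75, SE 1.96, limma adjusted p = 0.516). Control 2 was at 0 for both Fnip1 and Ass1, and TDP-43iΔEC 1 was at 0 for Slc1a2, which enters those fold changes.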

How the data were processed

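RNA from sorted spinal cord endothelial cells was made into libraries by SMARTseq2, with oligo-dT priming, PCR amplification and no molecular identifiers, so counting error leaves out errors of amplification. The authors aligned reads to GRCm39 with STAR 2.7.8a and GENCODE M30, and deposited RSEM 1.3.0 estimated counts per gene, with no strand setting stated. All deposited values were whole numbers and were used as they stood. The 6 columns were matched to samples by the library names in the labels.

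Genes were filtered with filterByExpr (13107 kept), scaled by TMM and compared with voom and limma 3.58.1 in R 4.3.3, with Benjamini-Hochberg adjustment over all genes and a threshold of 0.05, as the study names limma. edgeR 4.0.16 and DESeq2 1.42.0 were alternatives. Printed values are counts over DESeq2 size factors, and levels per kb use canonical transcripts of GENCODE M39, to which 98.7% of gene identifiers matched. The scripts were tested on simulated data. Intervals are at 95% confidence. The 9 genes, the lists and the motifs were chosen with earlier results of these data known. Named genes were the 9 carriers, Tardbp, in each amino acid list those past the threshold and the 3 with the lowest p, the 3 other carriers with the highest level per kb, and the 3 genes most correlated with each carrier. Markers were given as sums, and a further marker list is not reported here. Mice were the replicates. RefSeq promoters (GRCm38.p6) covered 5 of the 9 genes.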

Additional observations from a re-analysis of the deposited data

How the results depend on the processing

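With edgeR, 0 of 13107 genes passed the threshold (848 had an unadjusted p under 0.05), against 18 with limma, 247 with DESeq2 (105 higher and 142 lower), 10 with library size alone (4 higher and 6 lower), 1, a higher one, with scaling to endothelial markers, 76 with no filter (27 higher and 49 lower) and 39 with at least 10 counts in every library. Leaving out 1 mouse at a time gave 0 to 13 genes, with 0 without TDP-43iΔEC 1, 2 without TDP-43iΔEC 3, 3 without control 1 or TDP-43iΔEC 2 and 10 without control 2. Leaving out control 2 and TDP-43iΔEC 1 together, which was chosen after seeing the data, gave 0 (1026 unadjusted). DESeq2 placed 2 of the 9 carriers past its threshold (Slc7a1 -0.82 and Slc38a3 -0.72), and the other 17 settings placed 0. It also called 4 genes of the amino acid response and 1 of mTORC1 sensing. The median of all genes moved from -0.02 to 0.18 with library size alone and to 0.23 with endothelial scaling, where the median of the 9 was -0.35 and -0.30. Of 162 results for single carriers, 148 kept their direction. Slc38a2 turned to 0.058 with endothelial scaling and 0.014 without both libraries that stand apart. Slc1a4 turned to 0.11 with library size alone, 0.17 with endothelial scaling, 0.23 with quality weights, 0.32 without control 2 and 0.31 without both. Slc1a5 turned to 0.14 with edgeR, 0.17 with DESeq2, 0.036 with library size alone, 0.18 with endothelial scaling, 0.26 with the replicate block, 0.0064 without control 2 and 0.70 without TDP-43iΔEC 3. The cause was not tested. With 1 mouse left out, Slc38a2 lay at -0.37 to -0.01, Slc1a4 at -0.35 to 0.32 and Slc1a5 at -0.86 to 0.70. Same-numbered mice deviated from their group means with correlations of -0.06, -0.11 and -0.02. With 3 mice per group these values cannot show whether the replicate numbers pair the samples. The replicate block placed 0 carriers past the threshold, and 6 of the 9 had an unadjusted p under 0.05, as without it. The lowest count of any carrier, 39 for Slc1a5, has the largest counting error.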
